A study of Mus musculus with 18 samples.

Results

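The cytochrome P450 genes of families 1 to 3 were followed in the livers of 18 male mice, 3 in each of 6 groups. Members were the genes whose symbol has the form Cyp, a family number from 1 to 3, a subfamily letter and a gene number, with more than 100 reads summed over the 18 libraries. Of 59 such symbols among the 35441 genes of the deposited table, 44 passed and 15 did not. The 44 comprised 3 genes of family 1, 37 of family 2 and 4 of family 3, and the largest subfamilies were Cyp2c with 13 members and Cyp2d with 9. The members with the fewest reads were Cyp2d34 with 135 reads, Cyp2g1 with 147 reads and Cyp2d11 with 163 reads, and the genes just outside were Cyp3a57 with 75 reads, Cyp3a44 with 55.5 reads and Cyp2b13 with 53 reads. The form of the symbol also left out genes such as Cyp3a41a, Cyp2ab1 and pseudogenes. The 44 members were not chosen by their response to genotype or treatment.

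The groups were untreated wild-type mice (WT), untreated Lipa-/- mice, and Lipa-/- mice given rAAV8.hAAT.LIPA, each collected 12 weeks or 34 weeks after the injection of the treated mice. Lipa encodes lysosomal acid lipase, which hydrolyses cholesteryl esters and triglycerides in lysosomes. The Lipa-/- line lacked exon 4, removed by crossing the tm1a allele with mice carrying Cre under the CMV promoter, and was kept on the C57BL/6N background, with littermates matched for age and sex as controls. The vector carried the human LIPA coding sequence under the human alpha-1-antitrypsin promoter, which is active in hepatocytes, and was given by tail vein to young adult Lipa-/- mice. Per the study's methods, a single untreated Lipa-/- mouse was still alive at 34 weeks and the others had been killed earlier at humane endpoints, so the age of each Lipa-/- mouse labelled 34 weeks is not certain. The study code in the labels differed between the time points, and 1 Lipa-/- mouse at 12 weeks, number 5, had a code of its own. Time and study code cannot be told apart.

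P450 enzymes of families 1 to 3 are haem proteins of the endoplasmic reticulum that oxidise drugs, environmental chemicals, steroids, fatty acids and bile acids, using electrons from NADPH passed on by the reductase Por. In liver they are made mostly by hepatocytes, and many of them, such as Cyp2e1 and Cyp1a2, are concentrated around the central vein, whereas Cyp2f2 marks the periportal zone. Ligand-activated receptors set much of their transcription: AhR for the Cyp1 genes, CAR (Nr1i3) for Cyp2b10, PXR (Nr1i2) for Cyp3a11. Several mouse members also differ between the sexes under the pattern of growth hormone secretion.

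Between 17527848 and 25833134 reads were assigned to genes per library. Mouse Lipa stood between 202 and 323 CPM in the 6 WT mice and between 16.7 and 37.0 CPM in the 12 mice with the Lipa-/- genotype, and the transgene transcript stood between 523 and 2746 CPM in the 6 treated mice and at most at 0.906 CPM in any other mouse. CPM are a gene's read counts set relative to the size of its library and are scaled here with TMM factors, which correct for a few genes taking a large part of a library. Markers of some other liver cells moved with the genotype. The summed TPM, a length-corrected share of transcripts, of 14 macrophage markers ranged from 74.9 to 316 in WT mice, from 3612 to 8470 in Lipa-/- mice, and from 239 to 1113 in treated mice, and none of the 14 was at 0 in a whole group. The sum of 8 stellate cell markers ranged from 11.2 to 33.4 TPM in WT and from 129 to 907 TPM in Lipa-/- mice, and that of 6 cholangiocyte markers from 16.8 to 45.4 TPM and from 400 to 2619 TPM, nearly all of it from Spp1, which macrophages also make. Within these lists the Kupffer cell marker Timd4 and the stellate marker Lrat were called lower in Lipa-/- mice at both times, and the Kupffer cell marker Clec4f and the stellate marker Reln at 34 weeks. The sum of 7 endothelial markers overlapped at 12 weeks, at 66.9 to 85.4 TPM in WT and 73.8 to 95.2 TPM in Lipa-/- mice, and was 89.3 to 109 against 119 to 197 TPM at 34 weeks, with 2 of the 7 called higher and 2 lower at each time. Over all genes 20.2% were called higher and 9.06% lower at 12 weeks, and 20.5% and 15.7% at 34 weeks. The sum of 12 hepatocyte markers was 76016 to 95946 TPM in WT, 50644 to 88942 TPM in Lipa-/- and 45211 to 104480 TPM in treated mice. At 34 weeks all 3 Lipa-/- mice lay below all 3 WT mice in that sum, at 50644 to 85475 against 86233 to 95946 TPM, whereas at 12 weeks the groups overlapped. Of the 12 markers, 8 were called lower at 34 weeks and 0 higher, but their TPM did not move together. Mean Apoa2 was at 30061 TPM in WT and 10117 TPM in Lipa-/- livers at that time. Ahsg, Fgb and Apoa1 had higher means in Lipa-/- livers, at 8641, 1930.5 and 13191 TPM against 3080, 957 and 10229 TPM in WT. In bulk tissue, fewer hepatocytes and less RNA per hepatocyte cannot be told apart, and the part of cell composition in the differences below was not tested.

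Summed over the 44 members, P450 transcripts made up 0.932% ± 0.102 (SD, n = 3) of all TPM in WT livers at 12 weeks and 0.408% ± 0.0585 (SD, n = 3) in Lipa-/- livers. At 34 weeks the shares were 0.913% ± 0.13 (SD, n = 3) in WT and 0.225% ± 0.0302 (SD, n = 3) in Lipa-/- livers. Every Lipa-/- mouse lay below every WT mouse at both times. Treated livers held 0.541% ± 0.0646 (SD, n = 3) at 12 weeks, above all Lipa-/- and below all WT mice of that time, and 0.922% ± 0.153 (SD, n = 3) at 34 weeks, within the range of WT apart from 1 mouse at 0.745% and 1 at 1.018%. Set against the 12 hepatocyte markers of the same library, members gave 10.6 ± 0.649 (SD, n = 3) TPM per 100 TPM of marker in WT at 12 weeks and 4.91 ± 0.861 (SD, n = 3) in Lipa-/-. At 34 weeks that ratio was 9.84 ± 0.876 (SD, n = 3) in WT, 3.6 ± 0.726 (SD, n = 3) in Lipa-/- and 9.84 ± 1.36 (SD, n = 3) in treated livers. In treated livers at 12 weeks it ran from 5.36 to 10.6, so that this ratio, unlike the share of TPM, overlapped both other groups of that time.

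**Figure D1:**
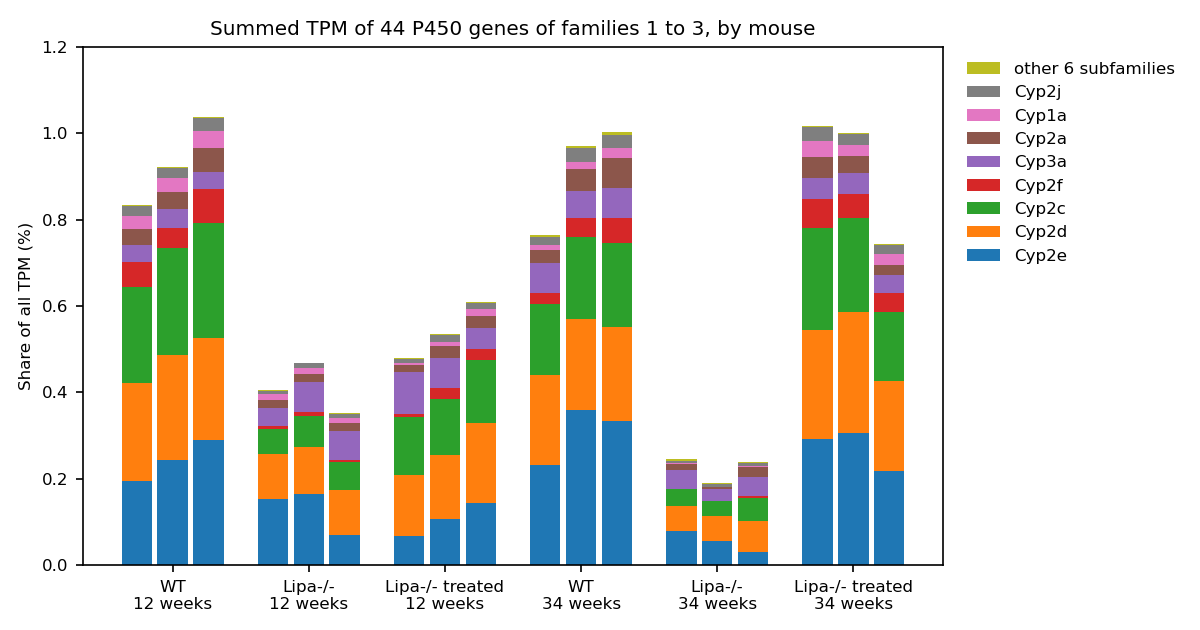
Stacked bars give the share of all TPM, in percent, held by the 44 P450 genes in each of 18 mice, coloured by subfamily and grouped by genotype, treatment and time. Lipa-/- bars end between 0.352% and 0.469% at 12 weeks and between 0.191% and 0.246% at 34 weeks, below all WT bars.

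The members differed widely in level. On the TPM scale, which is per length, Cyp2e1, the pericentral enzyme that oxidises ethanol and acetaminophen, stood first in every group, with 2425 ± 475 (SD, n = 3) TPM in WT at 12 weeks, or 26% of all member TPM. It was followed by Cyp2d10 with 857 ± 100 (SD, n = 3) TPM and Cyp2d9 with 798 ± 32.7 (SD, n = 3) TPM, and the 6 leading genes of that group made up 62.7% of the members' TPM. Cyp2f2, Cyp2c29 and Cyp2c70, in places 4 to 6 with 602, 592 and 569 TPM, did not differ beyond their spread. In Lipa-/- livers Cyp3a11 took the second place at both times, with 470 ± 146 (SD, n = 3) TPM at 12 weeks and 303 ± 76.7 (SD, n = 3) TPM at 34 weeks, and Cyp2f2 and Cyp2c29 were no longer among the 6 leading genes. At the other end, Cyp1b1, Cyp2s1, Cyp2a4 and Cyp2b9 stood below 0.2 mean TPM in WT at 12 weeks.

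Comparing Lipa-/- with WT asks what the loss of the lipase did to these genes. A gene was called when its fold change exceeded 1 on the log2 scale and its adjusted p from edgeR's quasi-likelihood test was below 0.05. At 12 weeks 25 of 44 members were called lower, against 9.06% of all 14533 genes tested, and 2 were called higher, against 20.2%. At 34 weeks 34 members were called lower, against 15.7% of all genes, and 1 was called higher, against 20.5%. Counted in either direction that was 27 members against 29.3% of all genes and 35 against 36.3%. The median log2 fold change of the members was -1.40 at 12 weeks and -2.35 at 34 weeks, beside 0.02 and -0.03 over all genes, and setting members whose reads were all at 0 to their lower bound left both medians as they were. The 3 Lipa-/- mice lay wholly below the 3 WT mice for 29 members at 12 weeks and 34 members at 34 weeks, against 24.1% and 29.8% of all genes, and wholly above them for 3 and 1, against 28.6% and 30.5%. That made 32 and 35 members without overlap, against 52.7% and 60.3%. With libraries scaled to their totals alone the median of all genes moved by 0.47 and 0.63 on the log2 scale, and 18 and 27 members were called lower and 2 and 2 higher. Of the members called lower, 22 were called at both times, which is 88% of those at 12 weeks and 64.7% of those at 34 weeks, beside 82.6% and 47.6% for all genes called lower. The mice differed between the times, and the fold change of 37 of 44 members was the lower one at 34 weeks.

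**Figure D2:**
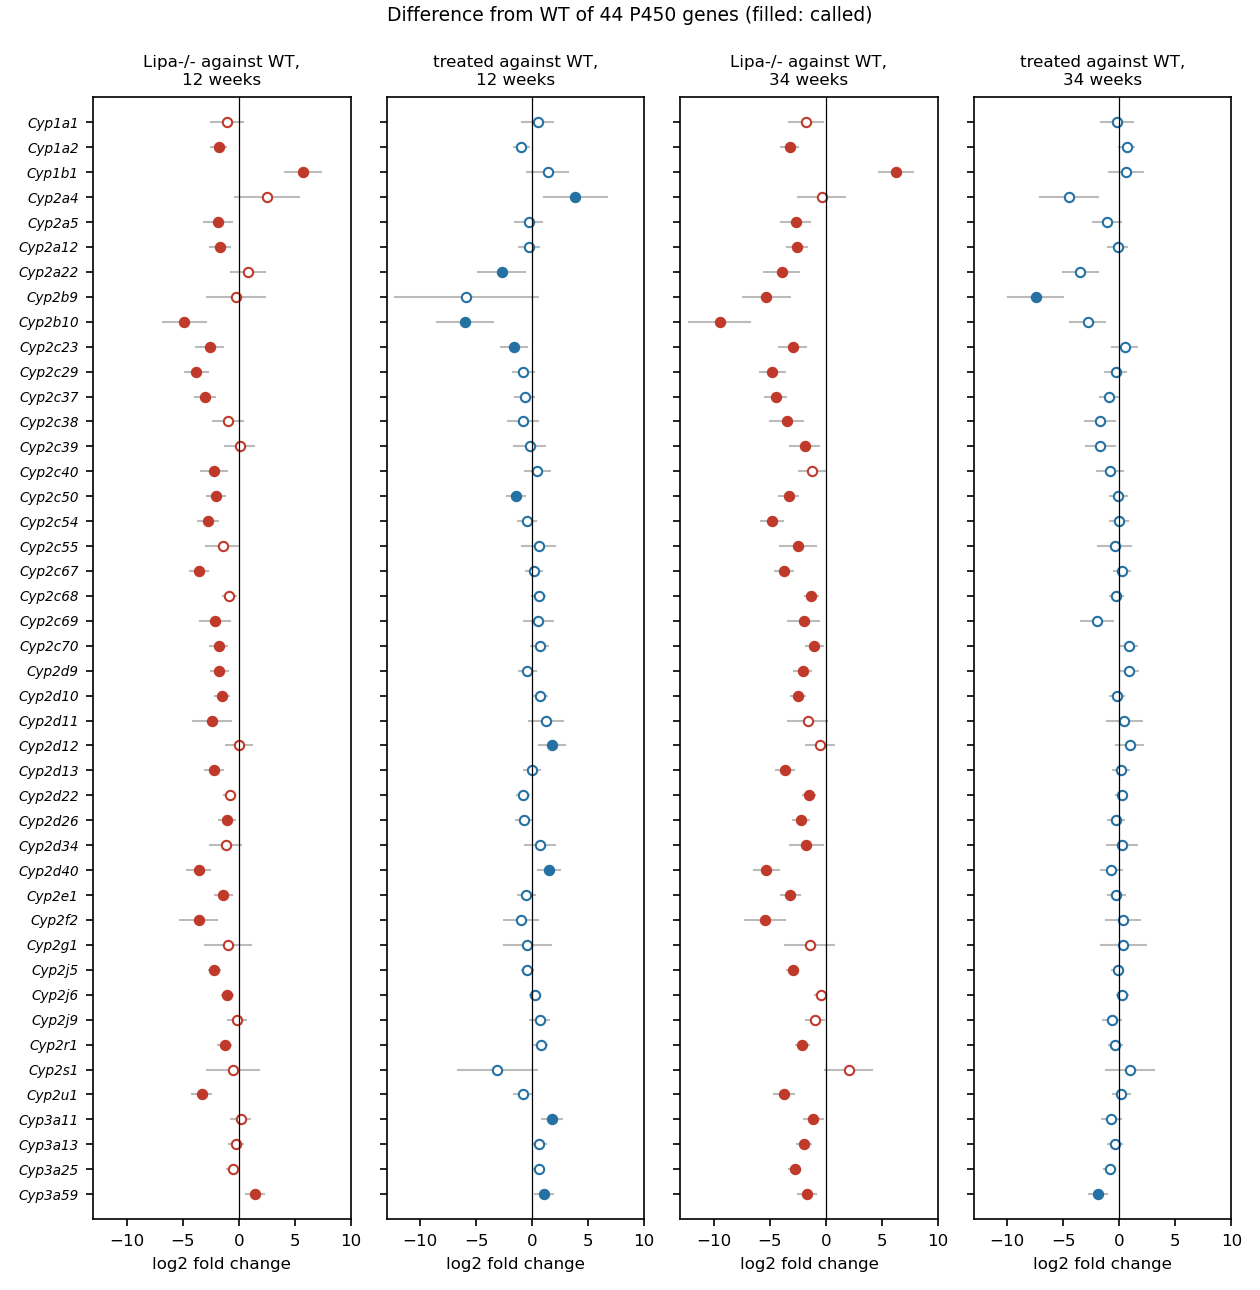
Points give the log2 fold change of each of 44 P450 genes against WT of the same time, in Lipa-/- mice (red) and treated Lipa-/- mice (blue) at 12 and 34 weeks, with grey lines for 95% intervals. Filled points are the called genes, 27 and 35 in the Lipa-/- panels and 9 and 2 in the treated panels, and most filled red points lie left of 0.

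The Cyp1 genes, the classical targets of AhR, split. Cyp1a2, which oxidises caffeine and aromatic amines, was at 593, 708 and 684 CPM in WT at 12 weeks and at 213, 187 and 171 CPM in Lipa-/- mice. At 34 weeks it was at 245, 230 and 343 CPM in WT and at 21.8, 20.8 and 44.2 CPM in Lipa-/- mice. The groups did not overlap at either time, and Cyp1a2 fell by 1.80 ± 0.32 (SE) on the log2 scale at 12 weeks and by 3.24 ± 0.34 (SE) at 34 weeks, with edgeR adjusted p of 0.000327 and 1.42e-06. Cyp1b1, which hydroxylates oestradiol and is known mainly from cells outside the hepatocyte, went the other way. It was at 0.161, 0.191 and 0.471 CPM in WT and at 7.63, 10.9 and 25.3 CPM in Lipa-/- mice at 12 weeks, and at 0.118, 0.828 and 0.545 CPM against 53.9, 37.3 and 32.3 CPM at 34 weeks. Cyp1b1 rose by 5.71 ± 0.76 (SE) and 6.29 ± 0.73 (SE) on the log2 scale, with edgeR adjusted p of 1.94e-05 and 3.37e-06, and was the only member called higher at both times. The macrophage and stellate marker sums moved with it, as given above. Cyp1a1, the inducible gene of the pair, stayed near the limit of detection at 0 to 1.34 CPM in all 18 mice and was not called in either comparison.

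**Figure D3:**
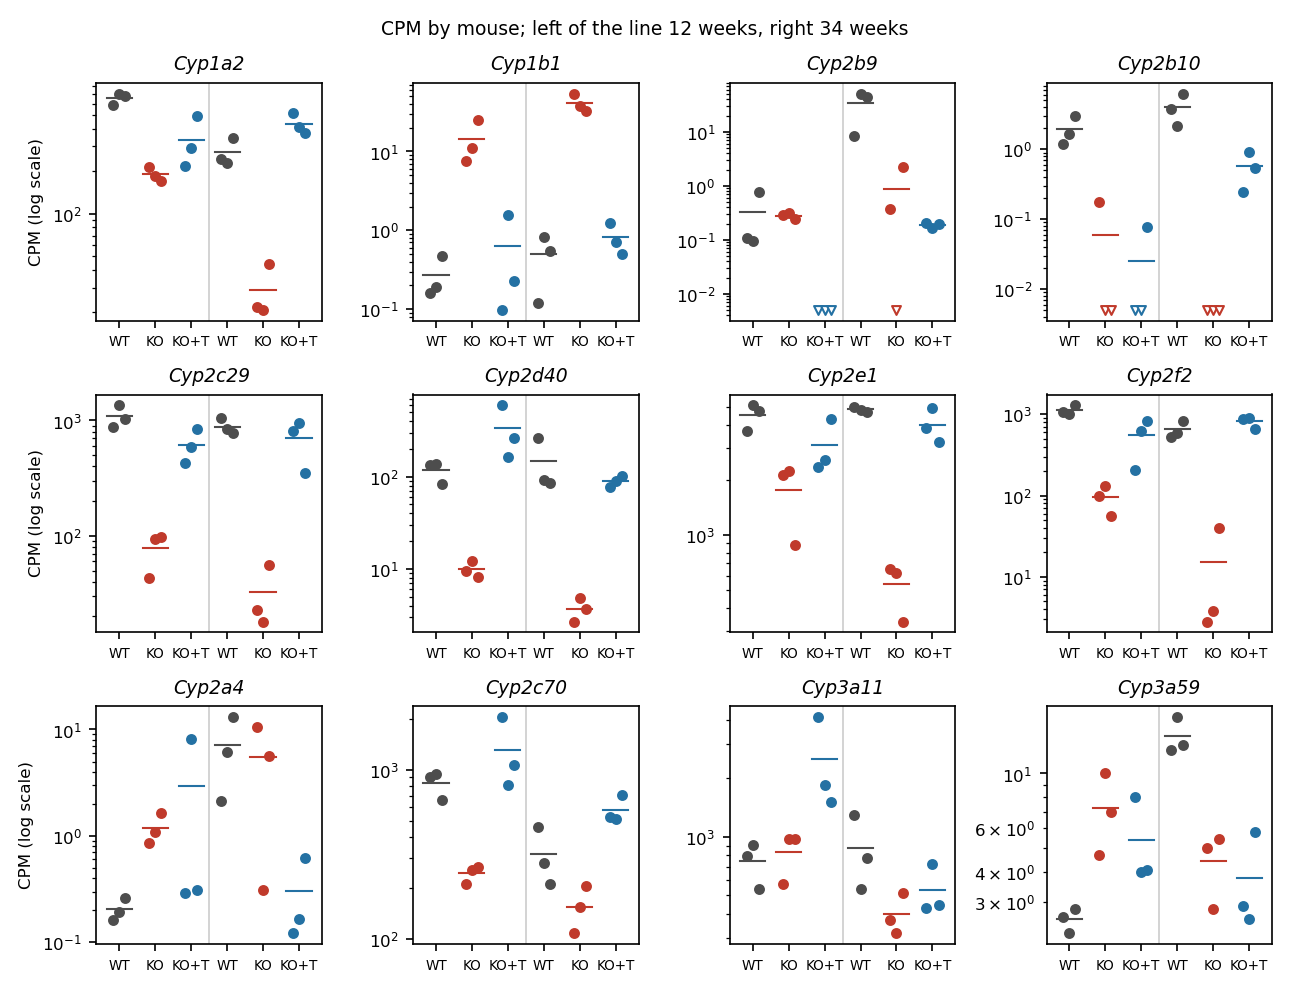
Points give the TMM-scaled CPM of 12 P450 genes in each mouse on a log axis, with a bar at the group mean, for WT (grey), Lipa-/- (red, KO) and treated Lipa-/- mice (blue, KO+T), 12 weeks left and 34 weeks right of the line. Open triangles at the lower edge are mice listed at 0, as for Cyp2b10 in all 3 Lipa-/- mice at 34 weeks, and Cyp1b1 is the panel in which the red points stand above the grey ones at both times.

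Genes induced through CAR and PXR were lower in Lipa-/- livers as far as they were called. Of 9 members known as CAR or PXR targets, 6 were called lower at 12 weeks and all 9 at 34 weeks. Of all 44 members, 56.8% and 77.3% were called lower at those times. Cyp2b10, the classical CAR target, was low in WT, at 1.18, 1.67 and 2.98 CPM at 12 weeks, and 2 of 3 Lipa-/- mice were at 0 with the other at 0.177 CPM. At 34 weeks WT mice held 3.72, 2.17 and 6.23 CPM and no read was found in any Lipa-/- mouse, so that Cyp2b10 was at least 37.8-fold lower, taking 3 reads per library as the limit. Cyp2c29, another gene induced through CAR, was at 880, 1354 and 1025 CPM in WT and 43.2, 94.6 and 97.1 CPM in Lipa-/- mice at 12 weeks, a drop by 3.79 ± 0.49 (SE) on the log2 scale with an edgeR adjusted p of 1.47e-05. At 34 weeks its Lipa-/- values were 22.8, 18 and 56.0 CPM against 775 to 1041 CPM in WT, and it dropped by 4.78 ± 0.52 (SE). Cyp2c37, Cyp2c50 and Cyp2c54 of the same gene cluster were called lower at both times, between 2.04 and 3.01 lower at 12 weeks and between 3.30 and 4.83 lower at 34 weeks on the log2 scale. Cyp2c55 was at 5.71 to 8.66 CPM in WT and 0.603, 1.51 and 5.42 CPM in Lipa-/- mice at 12 weeks, where it was not called, and fell by 2.48 ± 0.75 (SE) at 34 weeks, a call lost without Lipa-/- mouse 4. Cyp2a5 fell by 1.86 ± 0.60 (SE) and 2.68 ± 0.62 (SE), and its call at 12 weeks was lost without Lipa-/- mouse 8 or 9 and with totals alone, with edgeR adjusted p of up to 0.0823.

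Cyp3a11, the main mouse drug-oxidising Cyp3a enzyme and a PXR target, did not move in that way at 12 weeks. It was at 796, 908 and 538 CPM in WT and 569, 968 and 970 CPM in Lipa-/- mice, which overlapped, with a log2 fold change of 0.16 and a 95% interval from -0.69 to 1.02. At 34 weeks it was at 1298, 536 and 778 CPM in WT and 373, 318 and 511 CPM in Lipa-/- mice, and it fell by 1.12 ± 0.41 (SE) on the log2 scale with an edgeR adjusted p of 0.0329. With totals alone the value was -0.43 (edgeR adjusted p = 0.302), and the call was also lost with upper-quartile factors, without WT mouse 1 (-0.71) and without Lipa-/- mouse 4 or 5. Within the subfamily, none of the 4 members was called lower at 12 weeks and all 4 were at 34 weeks. Cyp3a13, another PXR target, fell by 1.92 ± 0.30 (SE) and Cyp3a25 by 2.76 ± 0.23 (SE) at 34 weeks, whereas Cyp3a59 was called higher by 1.49 ± 0.38 (SE) at 12 weeks and lower by 1.68 ± 0.37 (SE) at 34 weeks. For Cyp3a25 and Cyp3a59 the change of the difference with time was itself called, with values of -2.21 ± 0.31 (SE) and -3.17 ± 0.54 (SE) and edgeR adjusted p of 0.00825 and 0.036, against 0.0413% of all genes called lower in that contrast. No member was called higher there, against 0.0206%, and 0.0619% of all genes were called in either direction. Both calls of change were lost when Lipa-/- mouse 5 of 34 weeks was left out, with adjusted p of 0.055 for Cyp3a25 and 0.153 for Cyp3a59, the only mouse on which the call of Cyp3a25 depended. That of Cyp3a59 was lost in 12 of 21 alternatives, among them leaving out any 1 WT mouse of 12 weeks, Lipa-/- mouse 8 of 12 weeks, WT mouse 2 or 3 of 34 weeks or Lipa-/- mouse 4 of 34 weeks, and scaling by totals.

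Members known from each of the liver zones were called lower, though not all of them at 12 weeks. Cyp2e1 was at 3679, 5113 and 4754 CPM in WT and 2135, 2250 and 887 CPM in Lipa-/- mice at 12 weeks, and at 4716 to 4993 CPM against 336 to 653 CPM at 34 weeks. Its fall was 1.36 ± 0.37 (SE) on the log2 scale at 12 weeks and 3.18 ± 0.39 (SE) at 34 weeks, with no overlap at either time. With totals alone the value of Cyp2e1 at 12 weeks was -0.89 (edgeR adjusted p = 0.0588) and was not called. Of the 7 members known as pericentral, 6 were called lower at 12 weeks, with Cyp3a11 the exception, and all 7 at 34 weeks. The shares called lower among all 44 members were 56.8% and 77.3%. Cyp2f2, known for bioactivation of naphthalene and for its periportal place, was at 1076, 999 and 1295 CPM in WT and 99.0, 130 and 55.6 CPM in Lipa-/- mice at 12 weeks. At 34 weeks it was at 531, 592 and 839 CPM in WT and 2.81, 3.83 and 39.5 CPM in Lipa-/- mice, so that Lipa-/- mouse 6 stood well above the other mice of its group and below all of WT. Cyp2f2, at chr7:26819322-26833090, fell by 3.56 ± 0.78 (SE) and by 5.41 ± 0.85 (SE), with edgeR adjusted p of 0.00161 and 6.63e-05. Beside them, of 8 pericentral genes that are not P450s 1 was called lower at 12 weeks and 5 at 34 weeks, and of 8 periportal ones 3 and 6 were. Over all genes 9.06% and 15.7% were called lower. The periportal gene Ctsc was called higher at 12 weeks.

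Next come 4 members known for endogenous substrates, picked with their values known. Cyp2c70, which makes muricholic acid and so gives mice their hydrophilic bile acids, was at 903, 942 and 659 CPM in WT and 213, 256 and 266 CPM in Lipa-/- mice at 12 weeks, a fall by 1.77 ± 0.36 (SE) on the log2 scale. At 34 weeks it fell by 1.02 ± 0.35 (SE), with an edgeR adjusted p of 0.0237, and WT itself stood at only 213 to 456 CPM. With totals alone its value was -0.37 (edgeR adjusted p = 0.283), without WT mouse 1 of that time it was -0.66, and the call was lost in both, as it was with upper-quartile factors, in a fit of those groups alone and without Lipa-/- mouse 4 or 5. Cyp2r1, the vitamin D 25-hydroxylase, fell by 1.26 ± 0.28 (SE) and 2.09 ± 0.29 (SE), and with totals alone its 12-week value was -0.79, which was not called. Cyp2j5, an epoxygenase of arachidonic acid, was among the most even members: WT mice held 552, 573 and 592 CPM at 12 weeks and 504 to 530 CPM at 34 weeks, Lipa-/- mice 110 to 158 CPM and 47.4 to 77.2 CPM. It fell by 2.18 ± 0.23 (SE) and 2.97 ± 0.24 (SE). Cyp2u1, an enzyme of long-chain fatty acids, fell by 3.32 ± 0.41 (SE) and 3.76 ± 0.42 (SE), with all Lipa-/- mice between 1.97 and 4.68 CPM and all WT mice between 30.0 and 47.2 CPM.

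The steepest falls in the Cyp2d subfamily were those of Cyp2d40. It was at 135, 137 and 83.9 CPM in WT and 9.58, 12.0 and 8.12 CPM in Lipa-/- mice at 12 weeks, and at 262, 92.6 and 84.4 CPM against 2.68, 4.83 and 3.64 CPM at 34 weeks. Cyp2d40 fell by 3.58 ± 0.49 (SE) and 5.30 ± 0.54 (SE) on the log2 scale, with edgeR adjusted p of 2.74e-05 and 9.42e-07. In all, 6 of 9 Cyp2d members were called lower at 12 weeks and 7 at 34 weeks, and 9 and 12 of 13 Cyp2c members. The shares over all 44 members were 56.8% and 77.3%. The 9 members not called at 34 weeks were Cyp1a1, Cyp2a4, Cyp2c40, Cyp2d11, Cyp2d12, Cyp2g1, Cyp2j6, Cyp2j9 and Cyp2s1, and all of them except Cyp2c40, Cyp2a4, Cyp2j6 and Cyp2j9 stood near or below 1 CPM in WT at that time.

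Members with a known sex bias were looked at because all mice were male. The male-biased Cyp2d9, a testosterone hydroxylase, fell by 1.75 ± 0.36 (SE) and by 2.05 ± 0.37 (SE), and with Cyp2u1 both male-biased members were called lower at both times. Of 6 female-biased members, 3 were called lower at 12 weeks and 4 at 34 weeks, and none was called higher. The shares called lower over all 44 members were 56.8% and 77.3%. Cyp2a4, a female-biased steroid hydroxylase, was at 0.161, 0.191 and 0.262 CPM in WT at 12 weeks and 0.852, 1.09 and 1.66 CPM in Lipa-/- mice, which did not overlap, with a log2 fold change of 2.51 that was not called (edgeR adjusted p = 0.15). Of 9 genes of the growth hormone axis, the receptor Ghr was called lower at both times, by 1.87 ± 0.23 (SE) and 2.54 ± 0.24 (SE), and Cux2, a factor of female liver that represses male-biased genes, was called higher at both. At 34 weeks Bcl6 was also called lower and Socs2 higher, and the remaining 5 genes were called at neither time. Among all genes, 20.2% were called higher and 9.06% lower at 12 weeks, and 20.5% and 15.7% at 34 weeks. At 12 weeks Cux2 was at 7.52 CPM in Lipa-/- mouse 5 against 0.272 and 0.323 CPM in the other mice of its group, which overlapped WT at 0 to 0.322 CPM.

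In WT livers 2 members, Cyp2b9 and Cyp3a59, were called higher at 34 weeks than at 12 weeks, against 0.220% of all genes, and none lower, against 0.103%, where edgeR gave 15 members an unadjusted p under 0.05. In either direction 0.323% of all genes were called. The mice of the 2 times did not overlap for 19 members, 6 above and 13 below at 34 weeks, against 13.0%, 8.15% and 4.82% of all genes. Cyp2b9, a female-biased gene of the Cyp2b subfamily, was at 0.107, 0.0957 and 0.785 CPM at 12 weeks and 8.44, 50.7 and 44.6 CPM at 34 weeks, a log2 fold change of 6.71 ± 1.10 (SE) with an edgeR adjusted p of 0.0198. Cyp3a59 was at 2.63, 2.25 and 2.83 CPM and then 12.5, 17.0 and 13.0 CPM, a log2 fold change of 2.46 ± 0.39 (SE) with an adjusted p of 0.0118. Neither gene overlapped between the times. Cyp2a22 and Cyp2a4 had differences of 3.44 ± 0.74 (SE) and 5.09 ± 1.33 (SE) that were not called. Both calls were lost without WT mouse 1 or 2 of 12 weeks or mouse 2 of 34 weeks, and that of Cyp2b9 also without mouse 3 of 34 weeks, with edgeR adjusted p of up to 0.134 for Cyp2b9.

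Treated mice were set against WT to ask how far the vector brought these genes to WT levels. At 12 weeks 5 members were called higher than WT, against 13.6% of all genes, and 4 lower, against 12.0%, or 9 in all, against 25.5%. Without WT mouse 3 of that time 3 members were called. The groups did not overlap for 21 members, 10 above and 11 below WT, against 52.5%, 27.7% and 24.8% of all genes. With libraries scaled to their totals alone, 3 were called higher and 10 lower. At that time TMM factors of treated mice were 0.587 to 0.759 against 0.809 to 0.924 in WT, so that the 2 scalings put the treated livers at different levels, and the median of all genes moved by -0.40 on the log2 scale from one to the other. At 34 weeks no member was called higher, against 0.131% of all genes, and 2 were called lower, against 0.0895%, with 0.220% called in either direction. The groups did not overlap for 15 members at 34 weeks, 4 above and 11 below WT, against 8.89%, 4.78% and 4.11% of all genes. The median log2 fold change of the members was -0.13 at 12 weeks and -0.25 at 34 weeks, beside 0.06 and 0.00 over all genes.

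The 5 members above WT at 12 weeks were Cyp2a4, Cyp2d12, Cyp2d40, Cyp3a11 and Cyp3a59. Cyp3a11 was at 4167, 1848 and 1510 CPM in treated mice against 538 to 908 CPM in WT, 1.75 ± 0.42 (SE) higher on the log2 scale with an edgeR adjusted p of 0.00745, and on the TPM scale it was at 611 ± 259 (SD, n = 3) against 296 in WT. Cyp2d40 was at 592, 162 and 261 CPM against 83.9 to 137 CPM, 1.51 ± 0.45 (SE) higher with an adjusted p of 0.0182. Treated mouse 10 gave the largest value of Cyp3a11, Cyp2d40, Cyp2d12 and Cyp3a59, and without it none of these 4 was called, with log2 fold changes of 1.09, 0.75, 0.51 and 0.57. Cyp2a4 rested on treated mouse 11, at 8.15 CPM against 0.291 and 0.307 CPM in the other two, and its log2 fold change of 3.86 became 0.54 without that mouse. Mouse 10 also had the lowest sum of hepatocyte markers, 45211 TPM, and the highest sum of macrophage markers among treated mice, 1113 TPM, whose part in these values was not tested.

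The 4 members below WT at 12 weeks were Cyp2a22, Cyp2b10, Cyp2c23 and Cyp2c50. Cyp2b10 had 1 read in the 3 treated libraries together, 0.0767 CPM in mouse 12 and 0 in the others, against 1.18 to 2.98 CPM in WT. Cyp2c50, a CAR-responsive gene of the Cyp2c cluster, was at 160 to 392 CPM against 544 to 748 CPM in WT, 1.44 ± 0.38 (SE) lower on the log2 scale with an edgeR adjusted p of 0.0106. Cyp2c23, an arachidonic acid epoxygenase, was at 12.8, 113 and 103 CPM against 190 to 321 CPM, 1.65 ± 0.54 (SE) lower with an adjusted p of 0.0277. Cyp2a22 was at 0 to 0.217 CPM against 0.429 to 1.88 CPM, and its call was lost without any 1 of the 3 treated mice. Cyp1a2, at 219, 291 and 490 CPM, also stayed wholly below WT, and its log2 fold change of -0.99 missed the threshold of 1. With totals alone its value was -1.39 and it was called lower. For Cyp2c29, Cyp2f2 and Cyp2c67 the difference between treated and WT mice was not called at 12 weeks, with 95% intervals from -1.75 to 0.12, from -2.52 to 0.47 and from -0.55 to 0.88. Still, 2 of these lay wholly below WT: Cyp2c29 at 425, 588 and 837 against 880 to 1354 CPM, Cyp2f2 at 209, 630 and 819 against 999 to 1295 CPM. Cyp2e1 was not called either, at -0.55 on the log2 scale. It overlapped WT in CPM, at 2354, 2578 and 4325 against 3679 to 5113 CPM. In TPM it did not, at 674 to 1430 against 1949 to 2900 TPM. With totals alone Cyp2c29 was called lower, at -1.21.

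At 34 weeks the 2 members below WT were Cyp2b9 and Cyp3a59, the genes that had risen with time in WT. Cyp2b9 was at 0.203, 0.164 and 0.195 CPM in treated mice against 8.44, 50.7 and 44.6 CPM in WT, 7.48 ± 1.15 (SE) lower on the log2 scale with an edgeR adjusted p of 0.0126. Cyp3a59 was at 2.89, 2.57 and 5.80 CPM against 12.5, 17.0 and 13.0 CPM, 1.91 ± 0.38 (SE) lower with an adjusted p of 0.0491. Neither overlapped WT. The call of Cyp2b9 was lost without WT mouse 3 or any 1 treated mouse, with edgeR adjusted p of up to 0.0946, and that of Cyp3a59 without any 1 WT mouse or treated mouse 9 or 11. In both genes the WT value, shared by the comparison over time and the comparison with treatment, was the high one: Cyp2b9 was at 0 to 0.785 CPM in every mouse of 12 weeks. The other 42 members were not called, and their intervals were wide for some of them. Cyp2e1 had a log2 fold change of -0.28 with an interval from -1.04 to 0.48, Cyp2f2 of 0.33 from -1.16 to 1.81, Cyp1a2 of 0.68 from 0.01 to 1.34, and Cyp2a22 of -3.51 from -5.07 to -1.95 with an adjusted p of 0.0794.

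Set against untreated Lipa-/- mice, treated mice had 25 members called higher and 2 lower at 12 weeks, against 16.2% and 25.3% of all genes, and 29 higher and 2 lower at 34 weeks, against 12.8% and 18.6%. That is 27 and 31 in either direction, against 41.5% and 31.5%. The groups did not overlap for 32 and 30 members, against 59.3% and 55.9%, with 29 and 29 wholly above, against 26.6% and 27.4%, and 3 and 1 wholly below, against 32.8% and 28.5%. These comparisons share the Lipa-/- mice with those above. The change with time of the difference between treated and WT mice was called upward for 2 members, Cyp1a2 and Cyp2d22, against 8.58% of all genes, and downward for 5, against 9.83%, and for no member without WT mouse 3 of 12 weeks or without treated mouse 9 of 34 weeks. In either direction 18.4% of all genes were called. With libraries scaled to their totals alone, 14 members were called higher at 12 weeks and 22 at 34 weeks, and 3 and 2 lower. Cyp2d40 was higher by 5.09 ± 0.53 (SE) at 12 weeks and 4.59 ± 0.52 (SE) at 34 weeks on the log2 scale, and Cyp2f2 by 2.54 ± 0.74 (SE) and 5.74 ± 0.86 (SE). Cyp1b1 was lower by 4.34 ± 0.69 (SE) and 5.65 ± 0.70 (SE), at 0.0972, 1.58 and 0.230 CPM in treated mice at 12 weeks and 0.506 to 1.22 CPM at 34 weeks. Cyp2e1 and Cyp1a2 were called at 34 weeks, with 2.90 ± 0.39 (SE) and 3.91 ± 0.35 (SE). At 12 weeks their log2 fold changes were 0.81 ± 0.36 (SE) and 0.81 ± 0.32 (SE) and neither was called, although on the CPM scale all treated mice stood above all Lipa-/- mice in both genes. On the TPM scale, which has no TMM factor, the treated means were the lower ones, 1054 against 1290 TPM for Cyp2e1 and 108 against 132 TPM for Cyp1a2, with overlap in both, so the direction at 12 weeks depends on the scaling. From TMM factors to totals the median of all genes moved by -0.87 on the log2 scale at that time.

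The genes that serve or control these enzymes moved less uniformly. Por, which passes electrons to all microsomal P450s, was at 69.1, 92.1 and 90.1 CPM in WT and 271, 185 and 145 CPM in Lipa-/- mice at 12 weeks, and rose by 1.26 ± 0.26 (SE) on the log2 scale with an edgeR adjusted p of 0.00115. At 34 weeks its groups overlapped, with a log2 fold change of 0.34. Of 5 electron donors and partners, 1 was called higher and 2 lower at 12 weeks, and 3 lower at 34 weeks, among them Cyb5b with -1.82 ± 0.27 (SE) and -2.25 ± 0.27 (SE). Of 12 genes of haem synthesis and breakdown, 2 were called higher and 2 lower at 12 weeks, and 1 higher and 6 lower at 34 weeks. Beside both lists, 20.2% of all genes were called higher and 9.06% lower at 12 weeks, and 20.5% and 15.7% at 34 weeks. Cpox, a late enzyme of haem synthesis, fell by 1.98 ± 0.24 (SE) and 2.66 ± 0.25 (SE), and Hmox1, which breaks haem down and is also made by macrophages, rose by 3.36 ± 0.29 (SE) and 2.53 ± 0.27 (SE). Alas1, the first and rate-limiting enzyme of haem synthesis, was not called in Lipa-/- mice, with -1.26 ± 0.49 (SE) and -0.06 ± 0.49 (SE).

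Of 9 measured xenobiotic receptors and partners, Ppara alone was called at 12 weeks, lower by 1.42 ± 0.35 (SE), and 4 were called lower at 34 weeks, Nr1i3, Nr1h4, Nr0b2 and Ppara. Nr1i3, which encodes CAR, was at 78.9, 79.7 and 86.2 CPM in WT and 121, 49.3 and 41.9 CPM in Lipa-/- mice at 12 weeks, which overlapped, and at 152, 150 and 102 CPM against 28.9, 32.5 and 44.6 CPM at 34 weeks. It fell by 1.93 ± 0.39 (SE) at 34 weeks. Nr1i2, which encodes PXR, had log2 fold changes of -0.51 ± 0.28 (SE) and -0.92 ± 0.28 (SE), and Ahr of 0.63 ± 0.21 (SE) and 0.26 ± 0.21 (SE), and none was called. Of 15 measured targets of these receptors outside families 1 to 3, 5 were called higher and 3 lower at 12 weeks, and 2 higher and 5 lower at 34 weeks. Those higher at 12 weeks were Abcb1a, Akr1b7, Gadd45b, Nqo1 and Slco1a4, and those lower were Aldh1a1, Ces2a and Ugt1a6a. At 34 weeks Akr1b7 and Gadd45b were higher, and Aldh1a1, Aldh1a7, Ces2a, Ugt1a1 and Ugt1a6a lower. For receptors and targets alike, the shares over all genes were 20.2% higher and 9.06% lower at 12 weeks, and 20.5% and 15.7% at 34 weeks. Nqo1, a target of AhR and Nrf2, rose by 1.34 ± 0.42 (SE) at 12 weeks and was not called at 34 weeks. The median of that list was 0.59 at 12 weeks and 0.16 at 34 weeks on the log2 scale, where the members known as CAR or PXR targets had -2.04 and -3.30. That list is not confined to targets of CAR or PXR, so the medians are of unlike sets. The part of the receptors in these values was not tested.

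Of 10 hepatocyte transcription factors, 3 were called lower in Lipa-/- mice at each time, and 7 in treated mice at 12 weeks. Over all genes 9.06% and 15.7% were called lower in Lipa-/- mice at 12 and 34 weeks, and 12.0% in treated mice at 12 weeks. Hnf4a was at 341, 340 and 549 CPM in WT, 285, 256 and 178 CPM in Lipa-/- and 72.0, 133 and 145 CPM in treated mice at 12 weeks. It fell by 1.81 ± 0.31 (SE) on the log2 scale in treated mice, with an edgeR adjusted p of 0.00229, and had -0.78 ± 0.31 (SE) in Lipa-/- mice, which was not called. Onecut1 fell by 4.37 ± 0.72 (SE) in Lipa-/- and 3.56 ± 0.70 (SE) in treated mice at 12 weeks, and Alas1 by 2.41 ± 0.51 (SE) in treated mice. None of the 10 factors, 9 receptors, 12 haem genes and 5 electron donors was called in treated mice at 34 weeks, where 0.220% of all genes were.

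**Figure D4:**
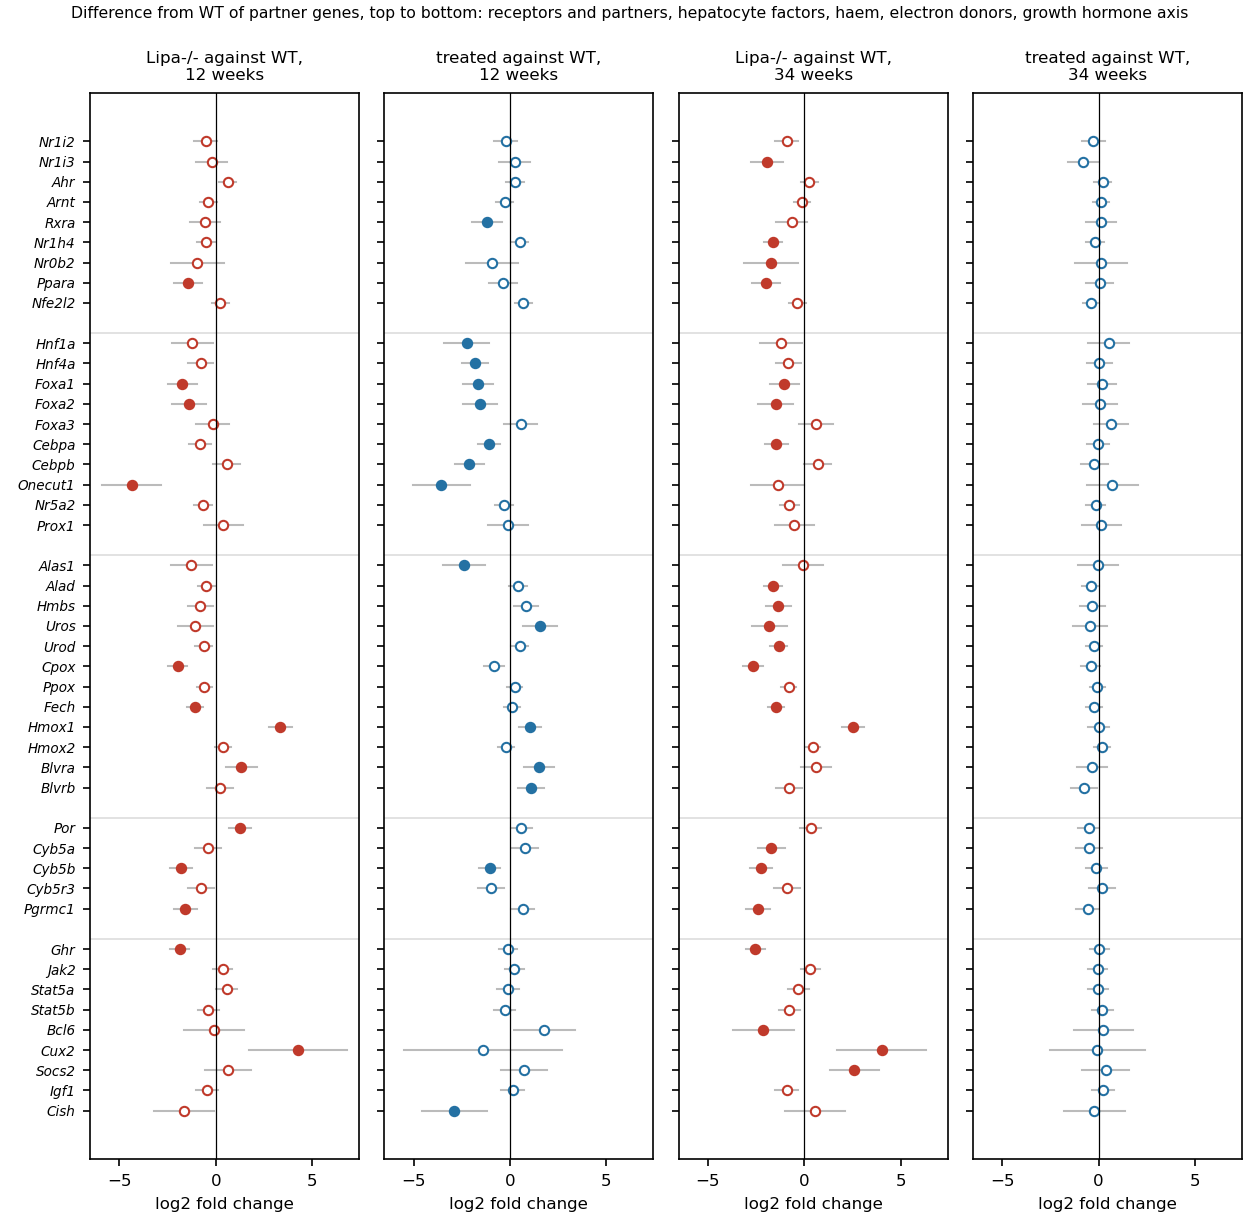
Points give the log2 fold change against WT of the same time for genes outside the P450 families, from top to bottom xenobiotic receptors and partners, hepatocyte transcription factors, haem genes, electron donors and the growth hormone axis, with grey lines for 95% intervals. Filled points are called genes, of which the treated panel at 12 weeks shows 7 of 10 hepatocyte factors left of 0 and the treated panel at 34 weeks none.

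The 250 bases before the start of each canonical transcript were searched for 9 short motifs on both strands, in the GRCm39 genome with the GENCODE annotation, and in the same stretch of 21751 protein-coding genes. A match is a run of letters, not a shown binding site. The HNF4 core CAAAGTCCA was found in 5 of 44 members, Cyp2c40, Cyp2c67, Cyp2c68, Cyp2c69 and Cyp2c70, and in 0.372% of all genes, and the longer HNF4 pair, AGGNCA repeated after a single A, in 3 members, Cyp2d10, Cyp2d34 and Cyp2d40, and in 0.124%. No member held both. The C/EBP motif TTGCNNAA was found in 8 members and 9.34% of all genes, TATAAA in 16 and 11.9%, the AhR core GCGTG in 6 and 31.2%, among them Cyp1a1 and Cyp1b1 but not Cyp1a2, and the FOXA motif TGTTTAC in 3 and 2.72%. No member had the STAT5 motif TTCNNNGAA, found in 7.70% of all genes, the HNF1 motif, GTTAAT and ATTAAC with any single base between, in 0.0046%, or the DR4 repeat, AGGTCA repeated after any 4 bases, in none. These stretches of 120 bases, read on the strand of the gene and ending at the base before its start, are shown for 3 genes that hold the core and differ in how far they fell, and for Cyp2d10, the member of highest level that holds the pair. Capitals mark the match. They lie at chr19:39801259-39801378 for Cyp2c40, chr19:39637501-39637620 for Cyp2c67, chr19:39729554-39729673 for Cyp2c68 and chr15:82291405-82291524 for Cyp2d10, all on the minus strand.
Cyp2c40: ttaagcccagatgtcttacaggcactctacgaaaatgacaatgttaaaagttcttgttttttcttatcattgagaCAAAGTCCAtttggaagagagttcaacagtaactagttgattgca
Cyp2c67: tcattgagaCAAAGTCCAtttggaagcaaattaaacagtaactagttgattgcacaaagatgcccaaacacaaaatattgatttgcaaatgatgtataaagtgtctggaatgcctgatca
Cyp2c68: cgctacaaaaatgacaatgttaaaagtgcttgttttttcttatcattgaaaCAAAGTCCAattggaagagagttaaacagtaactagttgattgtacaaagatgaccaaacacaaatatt
Cyp2d10: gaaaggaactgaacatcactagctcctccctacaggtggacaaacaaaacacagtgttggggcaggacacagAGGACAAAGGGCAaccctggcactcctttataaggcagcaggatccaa
The match began 45 bases before the start in Cyp2c40, 111 in Cyp2c67, 69 in Cyp2c68 and 48 in Cyp2d10. The bases around the core were nearly the same in Cyp2c40, Cyp2c67, Cyp2c68 and Cyp2c69. Those around the pair were nearly the same in Cyp2d10, Cyp2d34 and Cyp2d40. The counts of 5 and 3 members are therefore not counts of independent matches. With the same core, Cyp2c67 fell by 3.52 ± 0.37 (SE) on the log2 scale in Lipa-/- mice at 12 weeks, from 510 to 590 CPM in WT to at most 62.0 CPM, and Cyp2c40 by 2.19 ± 0.55 (SE), while Cyp2c68 had -0.86 ± 0.27 (SE) and was not called. Of the runs of 31 bases in these 3 transcripts, 68.4%, 65% and 62.6% also occur in another gene. How reads were shared among such copies could weigh on these values, and this was not tested. Cyp2d10, with the pair, fell by 1.48 ± 0.29 (SE), and with totals alone its value was -0.996, which just missed the threshold of 1.

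Many members have near copies, and the deposited values rest on how reads were shared among them. Of the runs of 31 bases in the annotated transcripts, 72.3% of those of Cyp2a4 and 71% of those of Cyp2a5 also occur in another gene, 68.4% for Cyp2c67, 49.2% for Cyp3a59 and 47.1% for Cyp3a25, but 7.13% for Cyp2e1 and 0% for Cyp1b1. The coding sequences of Cyp2a4 and Cyp2a5 are each 1482 bases long without the stop codon and differ at 23 of them, an identity of 98.4%. Cyp2a4 was at 0.122 to 13.2 CPM over all 18 mice and Cyp2a5, the coumarin 7-hydroxylase, at 5.18 to 486 CPM. Where 1 gene of such a pair is so much the lower one, a small error in sharing reads could weigh on it, and this was not tested. The pair is shown over coding bases 580 to 669, the stretch in which they differ most, with capitals at the bases that differ.
Cyp2a5: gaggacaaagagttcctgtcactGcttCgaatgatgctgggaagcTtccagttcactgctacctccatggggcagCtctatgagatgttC
Cyp2a4: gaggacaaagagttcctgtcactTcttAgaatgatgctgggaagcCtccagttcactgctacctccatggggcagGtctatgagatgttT
Cyp3a25 and Cyp3a59, whose coding sequences of 1509 bases differ at 38 and share 97.5%, are shown over coding bases 260 to 349 in the same way.
Cyp3a25: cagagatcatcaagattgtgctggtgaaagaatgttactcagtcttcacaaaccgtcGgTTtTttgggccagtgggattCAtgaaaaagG
Cyp3a59: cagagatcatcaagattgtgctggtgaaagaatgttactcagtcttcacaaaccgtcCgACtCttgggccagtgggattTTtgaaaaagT
In that stretch 7 of 90 bases differ, and 5 of 90 in the Cyp2a pair. Cyp3a25 was at 46.0 to 444 CPM over the 18 mice and Cyp3a59 at 2.25 to 17.0 CPM, and at 12 weeks the fold changes of the pair in Lipa-/- mice had opposite signs, -0.55 ± 0.22 (SE) for Cyp3a25, which was not called, and 1.49 ± 0.38 (SE) for Cyp3a59.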

How the data were processed

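Poly(A)-selected RNA of 18 frozen mouse livers was sequenced as paired-end reads. Estimated counts were made by the authors with Salmon 1.9.0 against the GRCm39 cDNA of Ensembl release 110 and summed to genes with tximport, and the deposited counts carry no scaling. The authors also deposited Salmon TPM values, used here for levels and shares, and effective gene lengths, used as offsets in an alternative. The submitters' processing notes name R 4.3.0 and DESeq2 1.40.1, and a deposited table of the authors' DESeq2 fold changes and p-values was not used. Groups and mouse numbers came from the labels. Each library came from 1 mouse.

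Counts were rounded to whole numbers (19.4% of the values were not whole), and genes with more than 100 reads over the 18 libraries, 14533 in all, were fitted with 6 group means in edgeR 4.0.16 (R 4.3.3), with TMM factors, the quasi-likelihood test and Benjamini-Hochberg adjustment over all genes. A call required an absolute log2 fold change above 1 and an adjusted p below 0.05. All p-values are two-sided, the SE is the fold change divided by the root of the F statistic, and intervals of 95% use the degrees of freedom of that test. A limit for a gene at 0 was set at 3 reads per library and covers counting error only. The change of a difference with time was tested as an interaction. In simulated counts for Lipa-/- against WT at 12 weeks, 200 of 14356 genes were changed by 2-fold or 4-fold, and 77% of the 4-fold changes were called, with 6 false calls. As many of these genes were raised as lowered. In the real comparison 20.2% of all genes were called higher and 9.06% lower, so the simulated figures need not carry over to it. The genes, lists and tests were chosen with earlier results of these data known, and any member could be named. The members described in full were drawn mainly from 16 chosen as the best known and, in each comparison, up to 6 called members per direction with at least 1 CPM and no overlap of the groups. Not each of them is described in every comparison. Motifs and shared runs of letters were searched in the GRCm39 genome with GENCODE vM39, which is later than the annotation behind the counts. DESeq2 1.42.0, other scalings, filters and thresholds, fits of the compared groups alone and fits without each mouse were alternatives.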

Additional observations from a re-analysis of the deposited data

Results flagged for a closer look

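Several members differed between the time points in their difference from WT, by the edgeR test of the interaction (34 weeks minus 12 weeks, log2 scale), in which 18.4% of all genes were called for treated mice and 0.0619% for Lipa-/- mice. In treated mice the difference from WT moved upward for Cyp1a2, by 1.66 ± 0.45 (SE, adjusted p = 0.0263), and Cyp2d22, by 1.03 ± 0.33 (SE, adjusted p = 0.0428). It moved downward for Cyp3a11 (-2.46 ± 0.58, adjusted p = 0.0241), Cyp3a25 (-1.43 ± 0.31, adjusted p = 0.0237), Cyp3a59 (-2.96 ± 0.54, adjusted p = 0.0198), Cyp2d40 (-2.22 ± 0.63, adjusted p = 0.0297) and Cyp2a4 (-8.35 ± 1.81, adjusted p = 0.0237). No member was called without WT mouse 3 of 12 weeks or without treated mouse 9 of 34 weeks, and leaving out WT mouse 1 left 1 called for that of 12 weeks and 2 for that of 34 weeks. Without treated mouse 11 of 12 weeks Cyp2a4 and Cyp2d22 were not called, and without treated mouse 10 Cyp1a2, Cyp2d22, Cyp2d40 and Cyp3a11 were not, with Cyp3a11 at -1.80 and Cyp2d40 at -1.47.

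In untreated Lipa-/- mice the difference from WT changed with time for Cyp3a25, by -2.21 ± 0.31 (SE, adjusted p = 0.00825), and for Cyp3a59, by -3.17 ± 0.54 (SE, adjusted p = 0.036). Every WT mouse of 34 weeks was above every WT mouse of 12 weeks in both genes, though Cyp3a25 was not called in that comparison, and study code and time cannot be told apart in either contrast.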

How the results depend on the processing

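The counts of members called in Lipa-/- against WT stayed within 1.5 times under every alternative, at 20 to 29 at 12 weeks and 29 to 35 at 34 weeks apart from single mice left out. Leaving out 1 mouse gave 24 to 26 and 30 to 36 of these, 24 to 26 and 24 to 30 for treated against Lipa-/- at 12 and 34 weeks, 3 to 14 and 0 to 2 for treated against WT, 0 to 4 for WT over time, and 0 to 6 and 0 to 11 for the interactions of Lipa-/- and of treated mice. For treated against WT at 12 weeks the 3 came without WT mouse 3 and the 14 without treated mouse 12, beside 9 with all mice. Treated against WT at 34 weeks (2 called) had 5 with DESeq2, 1 with length offsets, 1 with upper-quartile factors, 1 with totals, 1 in a fit of those groups alone and 0 at an adjusted p under 0.01. WT over time (2 called) had 7 with DESeq2, 4 with no filter, 1 in the fit of those groups alone and 0 under 0.01. The Lipa-/- interaction (2 called) had 6 with DESeq2 and 1 each with length offsets, upper-quartile factors, totals and under 0.01. The treated interaction (7 called) had 12 with DESeq2, 0 in the fit of those groups alone and 0 under 0.01. Treated against Lipa-/- at 12 weeks (27 called) had 17 with totals, and treated against WT at 12 weeks (9 called) 2 under 0.01. The cause was not tested. Of 2711 refitted values of single members 2407 kept direction and side of the threshold, 278 lost the call, 17 gained it and 9 changed sign, none of them called. In Lipa-/- against WT at 12 weeks Cyp2b9 became 0.218 and Cyp3a13 0.215 with totals, and leaving out 1 mouse gave -0.672 to 1.417 for Cyp2b9 and -0.028 to 0.375 for Cyp3a11, the sign changing without WT mouse 3. In treated against WT, leaving out 1 mouse gave -0.665 (treated mouse 11) to 1.986 for Cyp1b1 at 12 weeks, and at 34 weeks -0.686 to 0.078 for Cyp1a1, -0.598 to 0.004 for Cyp2c29 (highest without treated mouse 12) and -0.544 to 0.056 for Cyp2r1 (highest without WT mouse 1). WT mice shared numbers over time, and the fit with the number as a replicate block also called 2 members, but not the same 2. Cyp2b9 was kept, at 6.76 (edgeR adjusted p = 0.0453). Cyp3a59 was no longer called, at 2.43 (edgeR adjusted p = 0.0974), and a member not called in the main fit was called instead. The deviations of same-numbered mice correlated at 0.0763, -0.24 and 0.46, and those of mice with unlike numbers at -0.506 to 0.425. These values showed no pairing. With 3 mice per group, whose deviations sum to 0, they could not exclude it. Members near or below 1 CPM, such as Cyp1a1 and Cyp2s1, rest on few reads, so a missing call there does not show that no difference existed. Some at that level were called: in Lipa-/- mice Cyp2d11 was lower at 12 weeks, with WT at 0.366 to 0.766 CPM. At 34 weeks Cyp2d34 was lower, with WT at 0.195 to 0.590 CPM.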
